A study of Arabidopsis thaliana with 18 samples.

Results

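Transcript levels of 7 *Arabidopsis thaliana* genes that are widely read as outputs of plant immunity were followed in seedlings with mutations in the BORDER (BDR) genes or in *FPA*. The genes were taken by name from the 33602 genes of the count table: *PR1* (AT2G14610), *PR2* (AT3G57260), *PR5* (AT1G75040), *NIMIN1* (AT1G02450), *ALD1* (AT2G13810), *FRK1* (AT2G19190) and *SAG13* (AT2G29350). They were chosen with earlier results of these data known. Reads were so few that 4 of the 7 (*PR2*, *PR5*, *SAG13* and *FRK1*) passed the filter on low counts and entered the test, which covered 20143 genes.

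Salicylic acid is the hormone of defence against pathogens that feed on living tissue. It acts through NPR1 and the TGA transcription factors, which switch on *PR1*, *PR2* (a beta-1,3-glucanase), *PR5* (a thaumatin-like protein) and *NIMIN1*, whose product binds NPR1. *ALD1* encodes an aminotransferase of the synthesis of pipecolic acid, a signal of systemic resistance. *FRK1* encodes a receptor-like kinase that is induced when cell surface receptors perceive bacterial flagellin, through MAP kinases and WRKY transcription factors. *SAG13* encodes a short-chain dehydrogenase/reductase that is induced in senescence and cell death.

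Whole Col-0 seedlings aged 8 days were sequenced, with 3 libraries from each of 6 genotypes. All had 4 days of cold stratification and were grown in 16 h light and 8 h dark. These were the wild type (WT), *bdr1* (SALK_142108C), *bdr2* (CS852350), *bdr3* (SALK_059905), the *bdrs* triple mutant of these genes, and *fpa* (*fpa-7*), a mutant of a protein that shares the SPOC domain with the BDR proteins. The mutants of BDR genes carry T-DNA insertions, and the alleles of the triple mutant are not listed in its labels. The study calls the triplicates biological without saying whether seedlings were grown apart, so p-values measure the spread between these libraries.

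Library totals ran from 11566600 to 21084793 counts, and 1 count stood for 0.0472 to 0.0990 CPM (counts scaled to a library size of 1e6 after TMM). *BDR1* stood at 29.3 ± 4.39 CPM in WT (SD, n = 3), 7.28 ± 0.487 CPM in *bdr1* and 3.47 ± 0.473 CPM in *bdrs*. *BDR2* stood at 15.5 ± 1.03, 6.61 ± 1.15 and 7.74 ± 0.248 CPM in WT, *bdr2* and *bdrs*. *BDR3* was not called in *bdr3* or *bdrs* (edgeR adjusted p = 1 and 0.804), and *FPA* averaged 40.0 ± 7.66 CPM in WT against 23.5 ± 1.95 CPM in *fpa*. The second triple mutant library, *bdrs* 2, stood apart from the others for several defence genes, and the results that rest on it are given with and without it. Over the whole count table it was not the odd library, since *bdrs* 2 and 3 were the most alike pair. The chi-square of their counts per degree of freedom was 12.9, against 46.6 for *bdrs* 1 and 2 and 49.0 for *bdrs* 1 and 3. Library *bdrs* 2 held 4.01 CPM of *BDR1* and 7.79 CPM of *BDR2*, close to the other *bdrs* libraries, with 20036450 counts and 0.0673% ribosomal RNA. Ribosomal RNA took 1.65% of *bdrs* 1, 1.78% of *fpa* 3, 1.01% of *bdr1* 3 and at most 0.659% of any other library.

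The genes lie on chromosomes 1, 2 and 3 (TAIR10.1, RefSeq models). *PR1* lies on chromosome 2 (6241640 to 6242541, minus strand), *PR2* on chromosome 3 (21188397 to 21189967, minus) and *PR5* on chromosome 1 (28177670 to 28179022, plus). *SAG13* (12600914 to 12602556, plus), *FRK1* (8326049 to 8329944, minus) and *ALD1* (5768417 to 5772266, plus) lie on chromosome 2, and *NIMIN1* on chromosome 1 (497917 to 498539, minus).

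WRKY factors bind the core TTGAC, and TGA factors bind motifs with the core TGACG. The 300 bases before the start of the genes called higher in *bdrs*, *FRK1* and *SAG13*, are printed beside those of the tested genes that were not, *PR2* and *PR5*. They read 5′ to 3′ along the gene's strand, with TTGAC on either strand (GTCAA on the other) and the overlapping TGACG of *PR2* in capitals. They were read from the RefSeq genome of TAIR10.1 at chr2:8329945-8330244 (minus), chr2:12600614-12600913 (plus), chr3:21189968-21190267 (minus) and chr1:28177370-28177669 (plus).
FRK1: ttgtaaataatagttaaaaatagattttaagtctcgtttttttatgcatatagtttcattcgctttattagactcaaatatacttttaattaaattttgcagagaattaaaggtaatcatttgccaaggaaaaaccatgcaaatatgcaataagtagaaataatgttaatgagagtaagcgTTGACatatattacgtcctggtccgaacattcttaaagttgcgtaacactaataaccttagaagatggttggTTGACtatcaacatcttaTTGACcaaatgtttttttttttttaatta
SAG13: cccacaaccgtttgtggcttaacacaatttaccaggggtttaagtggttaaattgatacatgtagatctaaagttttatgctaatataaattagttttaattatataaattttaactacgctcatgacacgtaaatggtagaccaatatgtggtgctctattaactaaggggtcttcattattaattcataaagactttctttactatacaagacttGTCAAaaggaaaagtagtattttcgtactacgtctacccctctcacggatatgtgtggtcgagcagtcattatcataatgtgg
PR2: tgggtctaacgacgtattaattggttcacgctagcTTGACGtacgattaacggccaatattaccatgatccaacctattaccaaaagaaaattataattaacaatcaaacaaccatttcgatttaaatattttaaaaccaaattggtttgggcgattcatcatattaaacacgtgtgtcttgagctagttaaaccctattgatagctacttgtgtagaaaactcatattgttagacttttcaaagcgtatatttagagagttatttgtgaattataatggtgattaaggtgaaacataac
PR5: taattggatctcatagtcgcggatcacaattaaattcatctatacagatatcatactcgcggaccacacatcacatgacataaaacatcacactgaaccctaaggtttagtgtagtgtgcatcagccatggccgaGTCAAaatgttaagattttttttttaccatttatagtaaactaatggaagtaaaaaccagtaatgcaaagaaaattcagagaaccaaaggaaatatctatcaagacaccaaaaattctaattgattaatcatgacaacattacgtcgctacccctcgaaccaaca
The *FRK1* window held 3 copies of TTGAC, at 119, 47 and 29 bp before the start. The *SAG13* window held 1 copy on the opposite strand at 83 bp, the *PR5* window 1 on the opposite strand at 165 bp, and the *PR2* window 1 at 265 bp. *PR1* also held 1 copy of TTGAC, and *NIMIN1* and *ALD1* held neither motif. Of 27443 promoters of this length, 50.4% held TTGAC on either strand, 5.07% held at least 3 copies and 21.3% held TGACG, so a single copy is common. A match is a description of the letters and not a binding site.

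The 3 pathogenesis-related genes were low in every group, and none was called in any comparison. *PR1* had 1, 1 and 2 counts in WT 1 to 3, 0, 0 and 1 in *bdr1*, 8, 1 and 0 in *bdr2*, and 2, 1 and 0 in *bdr3*. It had 0, 3 and 0 counts in the *fpa* libraries. In *bdrs* it had 0, 23 and 1 counts, so 23 of the 24 came from *bdrs* 2, at 1.09 CPM. The other triple mutant libraries lay within the WT range or below it. Pooled over libraries, the *PR1* ratio of *bdrs* over WT was 6.16 (95% exact interval 2.12 to 24.4, counting error only). Between libraries the groups overlapped (two-sided exact permutation test, p = 0.8, where 0.1 is the smallest p that 3 against 3 allow). *PR1* failed the filter, which asked for 0.593 CPM in 3 libraries, since only *bdrs* 2 exceeded that level.

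*PR2* measured 0.461, 0.220 and 0.619 CPM in WT, and in *bdrs* 0.511, 1.04 and 0.470 CPM. It ranged from 0.272 to 0.429 CPM in *bdr1*, from 0.440 to 0.624 in *bdr2*, from 0.242 to 0.701 in *bdr3* and from 0.0990 to 0.369 in *fpa*. Among these 18 libraries *bdrs* 2 alone lay above 0.701 CPM, while *bdrs* 1 and 3 lay within the WT range. The log2 fold change of *bdrs* over WT was 0.68 ± 0.45 (approximate SE derived from the test, 95% interval -0.26 to 1.62, edgeR adjusted p = 0.540).

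*PR5* was the most abundant of the 7 in WT per length (1.65 ± 0.368 RPKM, that is CPM per kilobase of exon). It measured 2.25, 1.71 and 1.46 CPM in WT, and in *bdrs* 2.41, 3.11 and 1.82 CPM. These groups overlapped, with a log2 fold change of 0.45 ± 0.31 (interval -0.19 to 1.09, adjusted p = 0.556). In *fpa* it stood at 2.63, 3.08 and 2.48 CPM, above every WT library, but it did not pass the test (log2 fold change 0.60 ± 0.31, adjusted p = 0.270). Of all tested genes, 12.7% were likewise higher in *fpa* without overlap. *PR5* ranged from 1.82 to 2.75 CPM in *bdr1*, from 1.16 to 3.05 in *bdr2* and from 1.03 to 1.68 in *bdr3*. In the order of group means, from *fpa* through *bdrs*, *bdr1*, *bdr2* and WT to *bdr3*, all neighbours overlapped.

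*NIMIN1* and *ALD1* were at the limit of detection. *NIMIN1* had 2 counts in all in WT, 2 in *bdr1*, 0 in *bdr2* and *bdr3*, 2 in *bdrs* and 1 in *fpa*, and no fold is given. A count of 0 in *bdr2* or *bdr3* allows up to 0.0619 or 0.0625 CPM over the group (3 counts). *ALD1* had 2, 2 and 1 counts in WT, 0, 0 and 1 in *bdrs*, and 2 in each *fpa* library. The single mutants held 2 in all (*bdr2*), 2 (*bdr3*) and 0 (*bdr1*, up to 0.0589 CPM). The *ALD1* ratio of *bdrs* over WT was 0.205 (0.00434 to 1.84, counting error only), so no difference was detectable at this depth. Neither gene was high in *bdrs* 2, which held 1 count of *NIMIN1* and 0 of *ALD1*.

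*SAG13* and *FRK1* were higher in the triple mutant than in WT. *SAG13* stood at 0.346, 0.550 and 1.46 CPM in WT 1 to 3, and at 2.26, 24.0 and 3.41 CPM in *bdrs* 1 to 3 (31, 508 and 58 counts). Every *bdrs* library lay above all 15 others, and *bdrs* 2 lay 8.45-fold above the mean of *bdrs* 1 and 3. *SAG13* stood at 0.239, 0.218 and 0.258 CPM in *bdr1*, at 1.11, 0.818 and 0.165 in *bdr2*, at 0.581, 0.491 and 0.181 in *bdr3*, and in *fpa* at 0.409, 0.554 and 0.198. In the order of group means (*bdrs*, WT, *bdr2*, *bdr3*, *fpa*, *bdr1*) *bdrs* did not overlap WT. The fitted difference between *bdrs* and WT was 12.7-fold (log2 3.66 ± 0.72, edgeR adjusted p = 0.00364).

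*FRK1* measured 0.115, 0.220 and 0.450 CPM in WT (2, 4 and 8 counts), and 1.68, 4.34 and 0.999 CPM in *bdrs* (23, 92 and 17 counts). The lowest *bdrs* library was again above the highest of the other 15, which was WT 3. *FRK1* had 0, 3 and 3 counts in *bdr1*, 6, 4 and 1 in *bdr2*, and 2, 1 and 0 in *bdr3*. In *fpa* it had 2, 0 and 0 counts. Its fitted difference between *bdrs* and WT was 8.91-fold (log2 3.16 ± 0.64, edgeR adjusted p = 0.00464). *FRK1* passed the filter on low counts through the 3 *bdrs* libraries alone, so its entry into the test was tied to its level there. Its locus overlaps AT2G19180 on the opposite strand, and whether counting used strand is not given by the labels or methods, so reads of the overlap cannot be told apart. AT2G19180 measured 20.8 ± 1.81 CPM in WT, and in *bdrs* 22.2 ± 1.28 CPM (edgeR adjusted p = 0.875).

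Of all tested genes, 1.89% were called higher in *bdrs* than in WT, 4.67% were called in either direction and 8.81% were higher without overlap. These shares stand beside the calls of *SAG13* and *FRK1*. No count over the tested genes of the set is read against them, since *FRK1* entered only through *bdrs*. With no filter on low counts (25596 genes) the adjusted p was 5.62e-04 for *SAG13* and 0.00165 for *FRK1*. In whole seedlings, more cells that express a gene and more RNA per cell cannot be told apart.

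**Figure D1:**
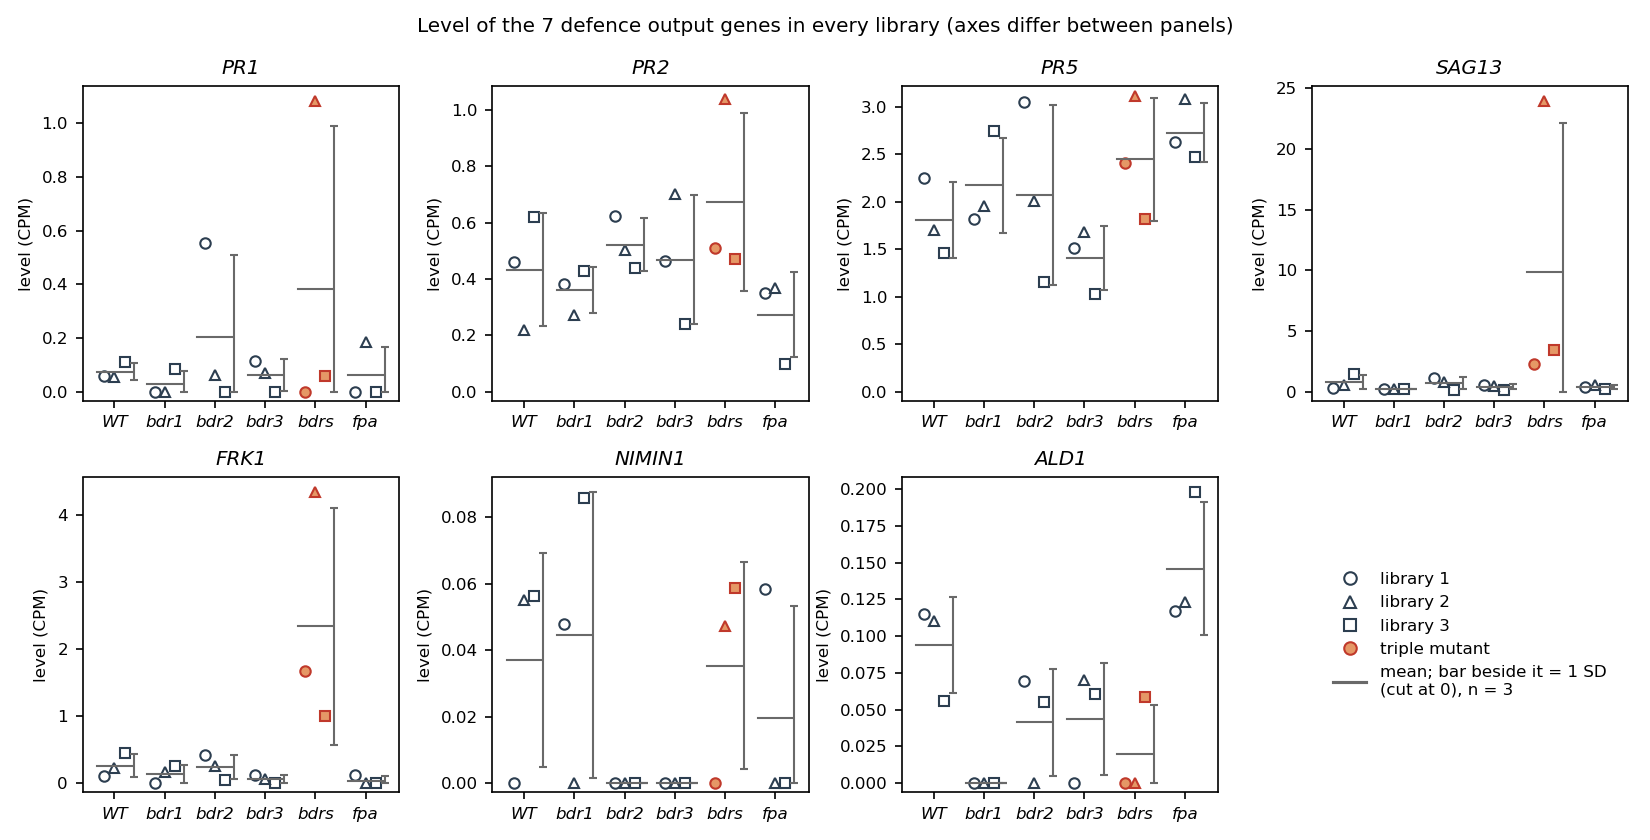
Level of each gene (CPM, axes differ) in every library by group, with the group mean and 1 SD (n = 3). Symbols give the library number and filled symbols the triple mutant; the highest point for *PR1*, *PR2*, *PR5*, *SAG13* and *FRK1* is *bdrs* 2, at 1.09, 1.04, 3.11, 24.0 and 4.34 CPM.

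The calls of *SAG13* and *FRK1* against WT rested on *bdrs* 2. Without that library the log2 fold change of *SAG13* was 1.84 ± 0.51 (edgeR adjusted p = 0.0692) and that of *FRK1* 2.28 ± 0.64 (adjusted p = 0.0728). Without any other library of WT or *bdrs* both genes kept their calls, with the highest adjusted p at 0.0309 for *SAG13* (without WT 2) and 0.0354 for *FRK1* (without WT 1). The mean of *bdrs* 1 and 3 was 3.61-fold above the WT mean for *SAG13* and 5.11-fold for *FRK1*, against 1.13-fold for *PR2* and 1.17-fold for *PR5*. Leaving out *bdrs* 2 lowered the log2 fold change of *PR2* to 0.16 (adjusted p = 0.983) and that of *PR5* to 0.21 (adjusted p = 0.956).

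**Figure D2:**
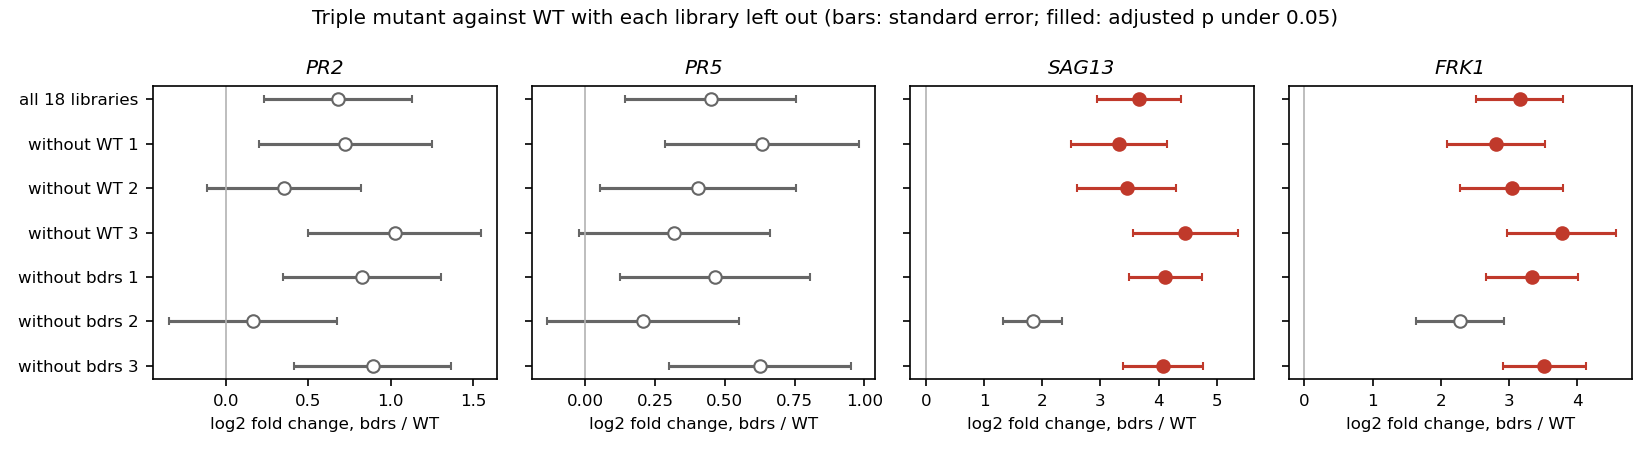
Log2 fold change of *bdrs* over WT (points, with the standard error as bars, axes differ) from all 18 libraries and with each WT or *bdrs* library left out; filled points have an adjusted p under 0.05. Without *bdrs* 2, *SAG13* falls from 3.66 to 1.84 and *FRK1* from 3.16 to 2.28, and their points are open.

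No gene of the set was called in *bdr1*, *bdr2* or *bdr3* against WT, where 0.0248%, 0.0397% and 0.0199% of all tested genes were called. The lowest unadjusted edgeR p among the 12 tests was 0.116, for *FRK1* in *bdr3* (log2 fold change -1.95 ± 1.18, adjusted p = 1). *SAG13* in *bdr1* lay below every WT library, as 5.24% of tested genes did (log2 fold change -1.71, 95% interval -4.01 to 0.60, adjusted p = 0.777). At these counts the intervals were wide, and that of *SAG13* in *bdr2* ran from -2.15 to 1.69.

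Against the mean of the single mutants, *bdrs* was higher by a log2 fold change of 4.61 ± 0.54 for *SAG13* (edgeR adjusted p = 9.11e-06) and 4.23 ± 0.52 for *FRK1* (adjusted p = 1.64e-05). In that comparison 4.01% of tested genes were called higher, and 3.17% had all *bdrs* libraries above all 9 single mutant libraries, as these genes did. Without *bdrs* 2 both genes kept this call, at 2.79 for *SAG13* (adjusted p = 5.29e-04) and 3.36 for *FRK1* (adjusted p = 0.00124). The effect of *bdrs* exceeded the sum of the 3 single mutant effects by 6.50 ± 1.94 for *SAG13* and 6.38 ± 2.03 for *FRK1* on the log2 scale. Neither excess passed the test (adjusted p = 0.273 and 0.342), as 0.477% of tested genes did. Part of each excess came from negative estimates in the single mutants, none of them called and all at few counts. In *bdr1*, *bdr2* and *bdr3* these were -1.71, -0.23 and -0.91 for *SAG13*, and -1.08, -0.19 and -1.95 for *FRK1*.

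In *fpa* none of the 4 tested genes was called against WT (edgeR, 0 also at an unadjusted p under 0.05), while 4.43% of all tested genes were. *FRK1* had a log2 fold change of -2.34 ± 1.29 (adjusted p = 0.308) and *SAG13* of -0.93 ± 1.02 (adjusted p = 0.636), and both overlapped WT. Set directly against *fpa*, *bdrs* was higher for *SAG13* (log2 fold change 4.59 ± 0.82, adjusted p = 0.00103) and *FRK1* (5.49 ± 0.91, adjusted p = 4.88e-04), beside 10.8% of all tested genes. With 2 *FRK1* counts in all of *fpa*, the pooled ratio was 55.2 with a counting interval of 15.0 to 461. *PR2* also lay above *fpa* without overlap, as 18.1% of genes did, but did not pass (1.22 ± 0.50, adjusted p = 0.0901). For *PR5* the difference was -0.15 (95% interval -0.78 to 0.47, adjusted p = 0.745). Without *bdrs* 2, *SAG13* stood at 2.78 (adjusted p = 0.00696) and *FRK1* at 4.63 (adjusted p = 0.00441), and both kept their calls. Comparisons with WT, *fpa* and the single mutants share the *bdrs* libraries.

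**Figure D3:**
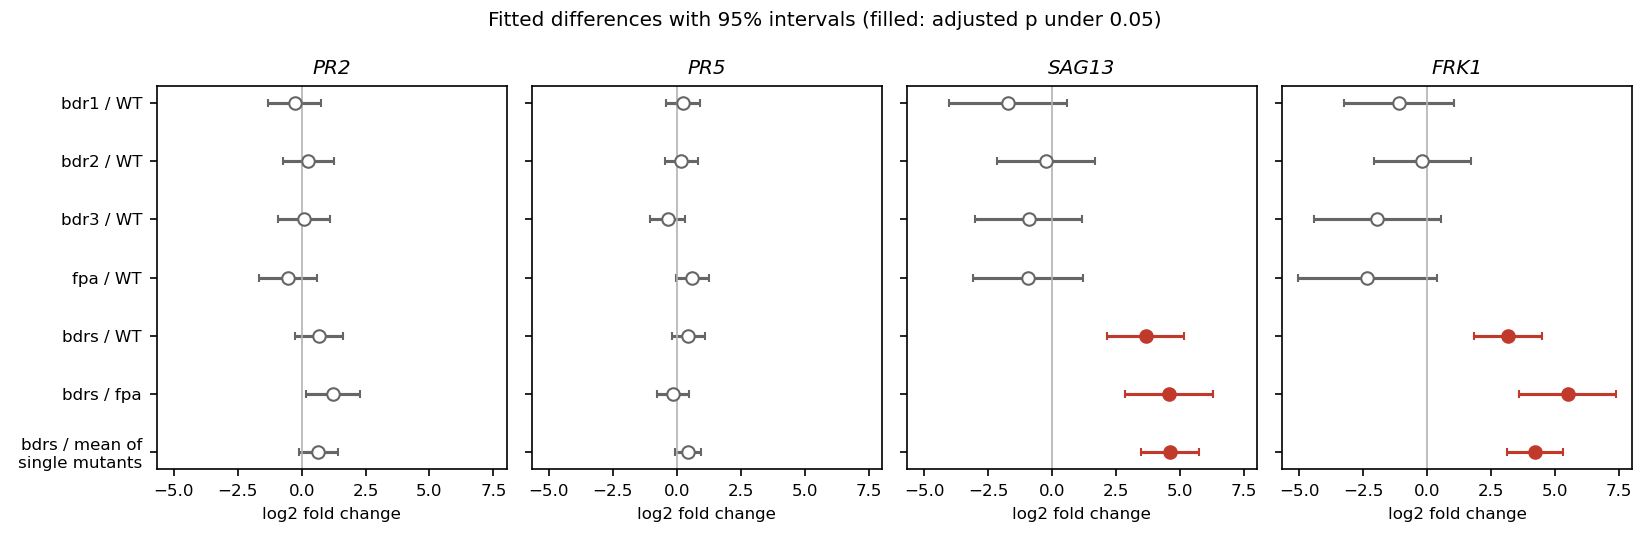
Fitted log2 fold change (points) and 95% interval (bars) of the 4 tested genes in 7 comparisons, filled where the adjusted p is under 0.05. Filled points stand only in the comparisons of *bdrs* with WT, *fpa* and the mean of the single mutants, for *SAG13* (3.66, 4.59 and 4.61) and *FRK1* (3.16, 5.49 and 4.23).

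The spread within *bdrs* was wide for the same genes. The SD of log2(CPM + 0.5) over the 3 *bdrs* libraries was 1.69 for *SAG13*, a value reached by 0.104% of tested genes, and 0.86 for *FRK1*, reached by 0.844%, against a median of 0.198 over all tested genes. For *PR2* and *PR5* it was 0.37 and 0.32, reached by 15.2% and 21.6%. *SAG13* also spread widely in WT, with an SD of 0.63 that 0.526% of genes reached and with WT 3 the highest. The biological coefficient of variation over the whole design was 58.8% for *SAG13* and 47.6% for *FRK1*, against 22.5% for *PR2*, 21.3% for *PR5* and a median of 15.9%.

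The library *bdrs* 2 was the highest of all 18 for 5 of the 7 genes, and for 10.2% of tested genes. Relative to the mean of *bdrs* 1 and 3 it was 3.24-fold higher for *FRK1*, 2.12-fold for *PR2* and 1.47-fold for *PR5*. Log2 ratios as large were seen in 0.0149% of tested genes for *SAG13*, 0.129% for *FRK1*, 1.52% for *PR2* and 3.65% for *PR5*. Over all tested genes the median of this ratio was 0.993, and 79 genes (0.392%) were at least 2-fold higher in *bdrs* 2.

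*SAG13* and *FRK1* followed each other over the 18 libraries (Pearson r = 0.95, Spearman rho = 0.78). After group means were removed r was 0.86, with *bdrs* 2 included. Without *bdrs* 2 it was 0.88, with group means kept, and these steps were not combined. *PR2* and *SAG13* gave r = 0.71, and 0.49 without *bdrs* 2. *PR5* was less like them, at r = 0.36 with *SAG13* and 0.37 with *FRK1*. These are descriptions over libraries, whose values share depth and scaling.

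Other genes of the pathways were read in lists. The lists were chosen with earlier results of these data known, so counts of calls within them are descriptions. In the list of salicylic acid synthesis and its control, all 11 tested genes (of 14) had a positive log2 fold change in *bdrs* against WT. The median was 0.40 beside 0.0095 over all tested genes, and 6 of the 11 had an unadjusted edgeR p under 0.05. Of these genes 3 were called higher, beside 1.89% of all tested genes, and none lower. They were *PBS3*, an enzyme of salicylic acid synthesis (log2 fold change 2.23 ± 0.58, edgeR adjusted p = 0.0280), the transcription factor gene *WRKY70* (2.02 ± 0.41, adjusted p = 0.00454) and *DLO1*, a salicylic acid hydroxylase (1.51 ± 0.25, adjusted p = 6.73e-04). *WRKY70* stood at 1.24, 6.04 and 2.59 CPM in *bdrs* 1 to 3, against 0.660 to 0.980 CPM in WT. Without *bdrs* 2, *WRKY70* and *PBS3* lost their calls (adjusted p = 0.0677 and 0.326), while *DLO1* kept its own (1.15, adjusted p = 0.00951). *PBS3* also lost its call without WT 1, WT 2, WT 3 or *bdrs* 3 (adjusted p = 0.135, 0.0824, 0.0749 and 0.0591). It reached at most 0.506 CPM in WT, below the filter level of 0.593 CPM, and its entry into the test depended on its level in *bdrs*. *ICS1*, the main enzyme of salicylic acid synthesis, had a log2 fold change of 0.20 (adjusted p = 0.648).

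Of 11 genes of NPR1 and its partners, which relay the hormone signal, none was called (edgeR, 0 at an unadjusted p under 0.05), with a median of 0.089. Since 4.67% of all tested genes were called in either direction, 0 among 11 is not read as a lack of change. *NIMIN2*, an early salicylic acid target, had the smallest p among them (log2 fold change 0.89 ± 0.45, adjusted p = 0.372). None of 3 further pipecolate pathway genes was called, beside the same 4.67% (1 at an unadjusted p under 0.05). That gene was *FMO1*, which makes N-hydroxypipecolic acid, at a log2 fold change of 2.08 ± 0.61 (adjusted p = 0.0603). Like *FRK1*, it passed the filter on low counts through the *bdrs* libraries alone (0.657 CPM or more, against at most 0.550 CPM in WT). Its entry into the test was thus tied to its level in *bdrs*.

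Of 9 tested genes (of 12) of other salicylic acid output, 1 was called higher (1.89% of all tested genes), *GRXC9*, a glutaredoxin gene, with a median of 0.73 over the 9. A positive log2 fold change was seen in 6 of the 9, and an unadjusted edgeR p under 0.05 in 3. *GRXC9* measured 1.33, 0.550 and 0.956 CPM in WT, and in *bdrs* 1.46, 2.69 and 3.47 CPM, so *bdrs* 2 was not its highest library (log2 fold change 1.44 ± 0.32, edgeR adjusted p = 0.0102). It kept its call without *bdrs* 2 (adjusted p = 0.0490) and lost it without WT 2 or *bdrs* 3 (0.0752 and 0.0760). In the same list 5 of the 9 genes were at least 2-fold higher in *bdrs* 2 than in *bdrs* 1 and 3, against the 0.392% over all tested genes. *LURP1*, required for resistance to an oomycete, stood at 0.146, 4.48 and 0.529 CPM in *bdrs* and at 0.404, 0.330 and 1.74 CPM in WT. *PCC1* stood at 0.146, 1.70 and 0.118 CPM in *bdrs* and at 0.346, 0 and 0.956 CPM in WT. Both were thus high in *bdrs* 2 alone, and in the other *bdrs* libraries they lay within the WT range or below it, unlike *SAG13* and *FRK1*.

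Among 11 genes of pattern-triggered immunity, the response that *FRK1* marks, 10 had a positive log2 fold change in *bdrs* against WT (median 0.47). An unadjusted edgeR p under 0.05 was reached by 5 of them, and 1 was called higher, again beside 1.89% of all tested genes. It was *CYP81F2*, a cytochrome P450 of indole glucosinolate synthesis, at 2.25, 1.82 and 5.01 CPM in WT and 8.83, 21.6 and 12.5 CPM in *bdrs*. Every *bdrs* library lay above WT (log2 fold change 2.25 ± 0.35, edgeR adjusted p = 3.57e-04), also without *bdrs* 2 (1.81, adjusted p = 0.00477). Of 5 tested genes (of 10) of jasmonate and ethylene output, 4 had a positive log2 fold change and 2 an unadjusted edgeR p under 0.05 (median 0.83). Called higher were *PR3*, a chitinase gene (log2 fold change 0.99 ± 0.21, adjusted p = 0.00636), and *PR4* (0.83 ± 0.21, adjusted p = 0.0219), beside the same 1.89%. Without *bdrs* 2 their adjusted p was 0.0696 and 0.120, and *PR4* also lost its call without WT 2 or WT 3 (0.131 and 0.0611). None of 11 tested senescence genes (of 12), the process that *SAG13* is named for, was called (edgeR, 0 at an unadjusted p under 0.05), with a median of 0.23. Of all tested genes 4.67% were called in either direction. *PAO*, a chlorophyll breakdown gene, had the smallest p there (log2 fold change 0.25, adjusted p = 0.479). In *fpa* no gene of these lists was called against WT, where 4.43% of all tested genes were.

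**Figure D4:**
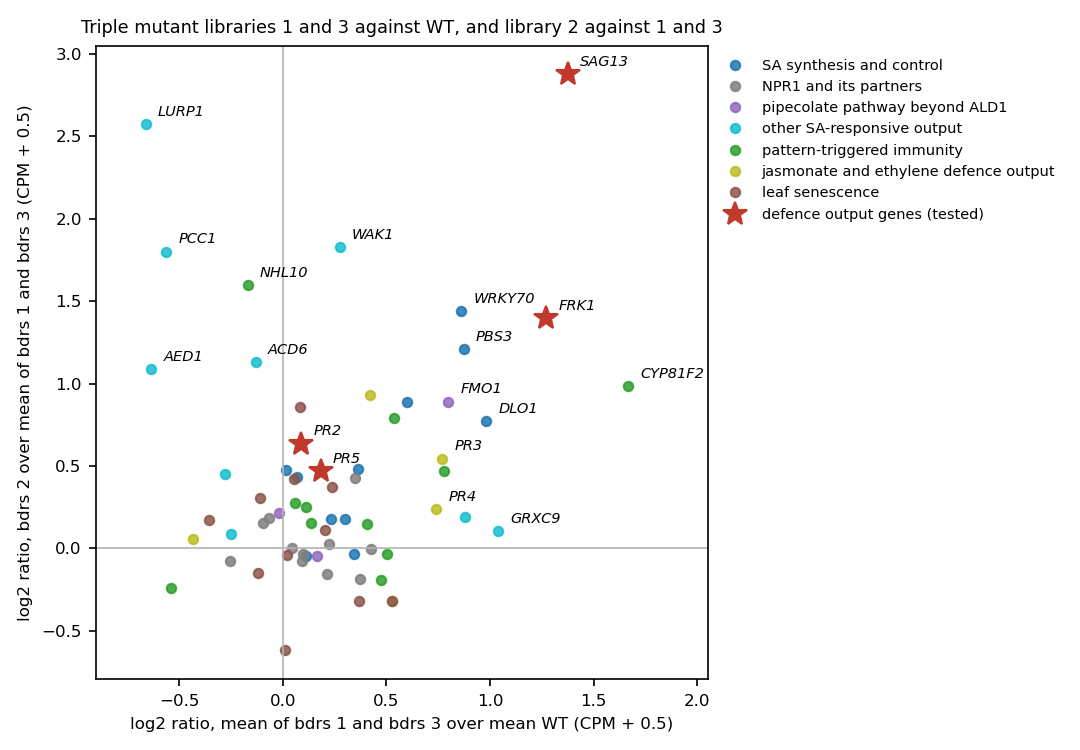
Each point is a tested gene of the defence and senescence lists, with the log2 ratio of the mean of *bdrs* 1 and 3 to the WT mean across and that of *bdrs* 2 to the mean of *bdrs* 1 and 3 upwards (CPM + 0.5). *SAG13* and *FRK1* are high on both axes, *PR2* and *PR5* lie near the middle, and *LURP1* and *PCC1* are high only upwards.

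Markers of other tissues and stages were read beside these results. All 5 root markers had a positive log2 fold change in *bdrs* against WT (median 0.34), and 2 had an unadjusted edgeR p under 0.05. None was called, beside 4.67% of all tested genes. The summed level of the 5 root markers was 117 to 161 CPM in WT and 171 to 195 CPM in *bdrs*. That of 5 shoot markers was 46763 to 58756 CPM in WT and 38747 to 55470 CPM in *bdrs*. Among them 1 was called lower, *GAPB*, a chloroplast glyceraldehyde-3-phosphate dehydrogenase gene (log2 fold change -0.74, edgeR adjusted p = 0.0160), where 2.78% of all tested genes were. The other shoot markers were not called. In dark-grown seedlings moved to light, the paper reports a weaker induction of *GAPB* in the triple mutant, and a close upstream neighbour on its strand. *GAPB* is thus not a neutral marker of shoot tissue here. The summed level of 3 seed storage genes was 299 to 464 CPM in WT and 65.1 to 131 CPM in *bdrs*, with 2 of 3 called lower. They were *CRA1*, a cruciferin gene (-1.98, adjusted p = 2.47e-04), and *OLEO2*, an oleosin gene (-1.92, adjusted p = 0.00138), while *SESA1* was not called (adjusted p = 0.998). In *fpa*, where no gene of the set was called, all 3 were called lower, beside 3.12% of all tested genes. There the log2 fold change was -3.38 for *CRA1*, -2.74 for *OLEO2* and -1.84 for *SESA1* (adjusted p = 1.12e-06, 5.50e-05 and 0.0229). The part of these markers in the differences of *SAG13* and *FRK1* was not tested.

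No upstream neighbour that was tested was called in *bdrs* against WT, where 4.67% of all tested genes were called, so none among so few says little. The nearest annotated upstream neighbours lay 1240 to 11063 bp away. The neighbour upstream of *SAG13*, AT2G29340, measured 70.4 ± 12.6 CPM in WT, and in *bdrs* 80.0 ± 28.5 CPM (edgeR adjusted p = 0.815), with 74.7 CPM in *bdrs* 2. The neighbour upstream of *PR5*, the thaumatin-like gene AT1G75030, measured 8.55 ± 1.74 CPM in WT, and in *bdrs* 5.72 ± 0.669 CPM (adjusted p = 0.333). The neighbour of *ALD1*, AT2G13800, stood at 4.39 ± 0.434 and 4.78 ± 0.867 CPM (adjusted p = 0.820). That of *PR1*, AT2G14620, stood at 0.505 ± 0.101 and 0.538 ± 0.169 CPM (adjusted p = 0.977). The largest change was that of the neighbour of *NIMIN1*, AT1G02460, from 0.392 ± 0.103 to 0.921 ± 0.616 CPM. Its log2 fold change was 1.28 ± 0.46 (adjusted p = 0.158), with 1.37 CPM in *bdrs* 2.

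Among 18382 other genes with a mean of at least 1 CPM, those most like the mean profile of the 4 tested genes over the 18 libraries were *GSTF6* (r = 0.96), AT4G37520 (0.95), *NAC042* (0.93), *GSTF7* (0.93) and AT2G42360 (0.93). Log2 values were centred but not scaled, so *SAG13* and *FRK1*, which varied most, weighed most in this profile. Taken alone, *SAG13* was most like *GSTF6* (r = 0.97) and *FRK1* most like AT2G42360 (0.96). *PR2* was most like AT1G24140 (0.80) and *PR5* most like AT5G64110 (0.82), which are not among the 5. *GSTF6*, a glutathione S-transferase gene, had a mean of 18.3 CPM in WT and stood at 49.9, 147 and 61.7 CPM in *bdrs* 1 to 3. *NAC042*, a NAC transcription factor gene, had a mean of 0.994 CPM in WT and stood at 2.99, 6.23 and 3.88 CPM in *bdrs*. All 5 were highest in *bdrs* 2 among the *bdrs* libraries. Without *bdrs* 2 their correlations with the profile were 0.82 to 0.93. *GSTF6* and *GSTF7* are near-identical neighbours, and the division of reads between them is uncertain. The 5 were chosen for their likeness, so their levels in *bdrs* are a description.

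**Figure D5:**
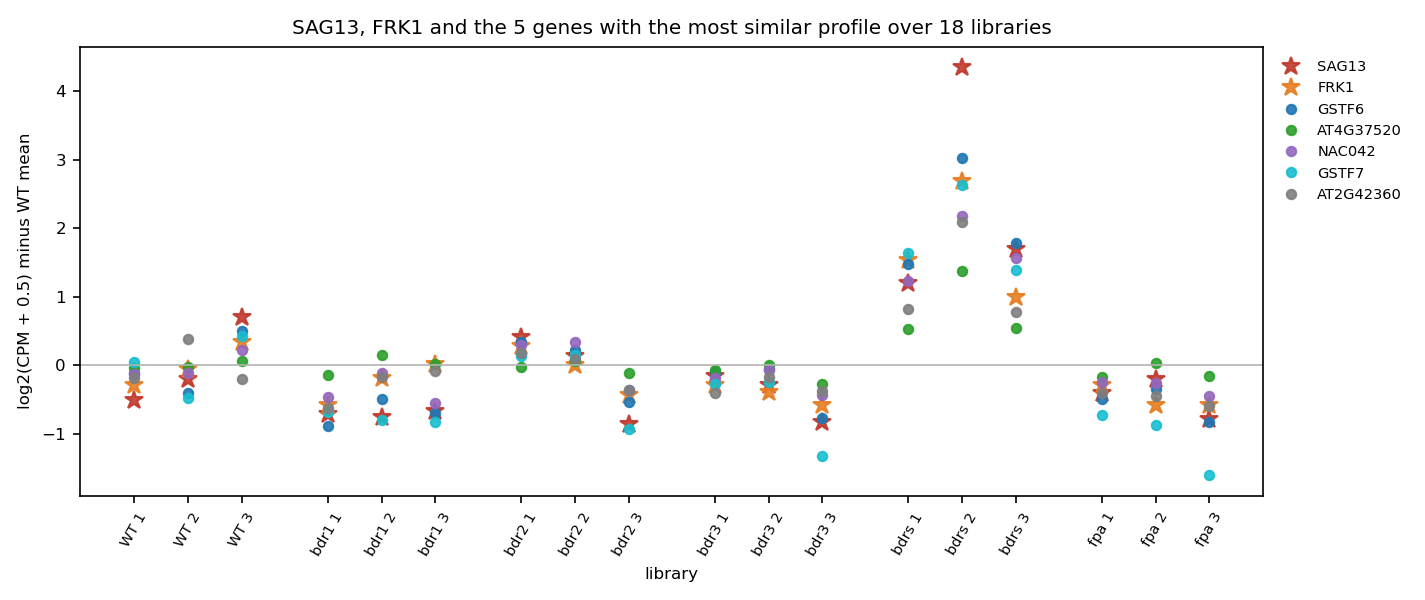
Log2(CPM + 0.5) minus the WT mean in each of the 18 libraries for *SAG13* and *FRK1* (stars) and the 5 genes with the most similar profile (circles). All 7 lie above the WT mean in the 3 *bdrs* libraries and highest in *bdrs* 2.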

How the data were processed

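The authors made libraries of poly(A) RNA with a stranded kit and kept uniquely aligned read pairs. The submitters' processing notes name STAR 2.5.2b, SAMtools 1.3.1, featureCounts, R 3.3.2, DESeq2 1.14.1 and TAIR10. The authors deposited counts per gene and a second table of normalized signal, counts divided by size factors, which was used only to choose genes for an alternative. Whether strand was used in counting is not given in these sources.

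Counts were fitted with edgeR 4.0.16 (R 4.3.3, limma 3.58.1) over all 18 libraries with TMM scaling, filterByExpr and the quasi-likelihood test. P-values were adjusted by Benjamini and Hochberg over 20143 genes, and genes with an adjusted p under 0.05 were called. The script was tested on simulated data. Counting intervals are exact Poisson intervals, or exact binomial intervals for ratios. Alternatives included DESeq2 1.42.0, other filters and scaling, a replicate block and leaving out each library.

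The text names the 7 genes, list genes called in *bdrs* or *fpa* against WT, the gene of smallest p in a list, the 5 most similar profiles and the nearest upstream neighbours. *ICS1*, *LURP1*, *PCC1* and 4 genes labelled in a plot (*WAK1*, *AED1*, *ACD6*, *NHL10*) were named after their values were seen. The 7 genes and the lists were chosen with earlier results of these data known. Promoters were read from the RefSeq TAIR10.1 genome.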

Additional observations from a re-analysis of the deposited data

How the results depend on the processing

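The 4 tested genes gave 511 results under alternatives in 8 comparisons, of which 498 kept their direction and side of the threshold, 2 lost the call and 11, none of them called, changed sign. The lost calls were those of *SAG13* and *FRK1* in *bdrs* against WT without *bdrs* 2 (adjusted p = 0.0692 and 0.0728). Leaving out 1 library, the log2 fold change ranged from 1.84 to 4.46 for *SAG13*, 2.28 to 3.77 for *FRK1*, 0.16 to 1.02 for *PR2* and 0.21 to 0.63 for *PR5*, and the number of the 4 called from 0 to 2. With a filter of at least 1 CPM in 3 libraries, *PR2* and *FRK1* were not tested and 1 gene was called against WT, against *fpa* and against the mean of the single mutants. A setting in which a gene failed the filter gave no result for it and is not among the 511.

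The sign changes came from leaving out 1 library. *PR2* ranged from -0.60 to 0.066 in *bdr1*, from -0.062 to 0.60 in *bdr2*, from -0.26 to 0.44 in *bdr3* (-0.23 without WT 2) and from -0.082 to 1.24 against the sum. *PR5* ranged from -0.20 to 0.48 in *bdr2* and from -0.39 to 0.022 for *bdrs* against *fpa*. In *bdr2*, *SAG13* ranged from -0.72 to 0.57 (0.28 without *bdr2* 3) and *FRK1* from -0.80 to 0.43 (0.32 without *bdr2* 3). The cause was not tested.

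Calls over all tested genes in *bdrs* against WT went from 940 to 525 without *bdrs* 2 and to 1417 without *bdrs* 1. In *fpa* they went from 893 to between 476 and 590 without WT 2, WT 3, *fpa* 1 or *fpa* 2. For *bdrs* against *fpa* they went from 3999 to between 1224 and 2297 without *bdrs* 2, *bdrs* 3, *fpa* 2 or *fpa* 3. Against the mean of the single mutants they went from 1513 to 754 and 987 without *bdrs* 2 and *bdrs* 3, and against the sum from 96 to 35 without WT 3 and to 154 with DESeq2. For *bdr1* they went from 5 to 26 with DESeq2 and 11 with no filter. For *bdr2* they went from 8 to 5 with the genes of the normalized table and to 4 or 5 without a *bdr2* library. For *bdr3* they went from 4 to 8 with DESeq2, 53 with only the groups compared, and 15 after dropping the 3 libraries with most ribosomal RNA.

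Pairing of libraries by replicate number was not established, since the labels give the numbers no meaning and not every pair was alike. Of 45 pairs of libraries with the same number, 28 had deviations correlated above 0.1 (WT and *bdrs*: 0.24, 0.33 and 0.026), the median was 0.22 against -0.077 for different numbers, and 13 of 18 libraries were most like their own number. With the replicate block, *SAG13* gave 3.20 (adjusted p = 0.00410), *FRK1* 3.01 (0.00379), *PR2* 0.65 and *PR5* 0.45, no call of the 4 genes changed, and calls over all genes went from 940 to 1238 in *bdrs* and from 893 to 1362 in *fpa*. Depth limits *PR1*, *NIMIN1* and *ALD1*, which had at most 23 counts in a library, and *FRK1* outside *bdrs*, at most 8.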
